A study of Homo sapiens with 6 samples.

Results

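The sensors of the endoplasmic reticulum (ER) membrane and the CREB3 family of membrane-bound transcription factors were followed in the human cell line MDA-MB-231, which was derived from a triple-negative breast tumour. The 10 genes were chosen by their role and by the ArA-against-control TPM values of these libraries, in which the lipid-linked CREB3L3 was already known to differ, and were taken by symbol from a table of 63241 genes: CREB3, CREB3L1, CREB3L2, CREB3L3, CREB3L4, ATF6, ATF6B, ERN1, EIF2AK3 and XBP1. All 10 were found, and each had 1 row. The 3 ArA libraries were made from cells cultured for 24 h with ArA at 40 µM, which the study's title names as arachidonic acid, and the 3 control libraries from cells left untreated over that time. No vehicle is named for the control cells, all 6 libraries come from 1 cell line, and whether replicates were separate cultures is not stated, so the p-values reflect the spread of these 6 libraries, which may be technical.

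The lumen of the ER folds secreted and membrane proteins, and 3 kinds of sensor in its membrane respond when folding falls behind. IRE1, encoded by ERN1, is a kinase and endonuclease that cuts a short intron out of XBP1 mRNA, so that XBP1 is read as an active transcription factor. PERK, encoded by EIF2AK3, phosphorylates eIF2α and lowers translation. ATF6 and ATF6B move to the Golgi, where the site-1 and site-2 proteases release the part that binds DNA. The CREB3 proteins are released by the same proteases, and CREB3L3, or CREBH, is best known from liver and small intestine, where it acts on lipid genes. All of these proteins are switched by cleavage, splicing or phosphorylation, which a transcript level does not show.

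The stretch that IRE1 removes is shown first, since it is what a gene-level value of XBP1 cannot resolve. A GENCODE v29 coding transcript of XBP1 holds 26 bases that another lacks, at chr22:28796127-28796152 of hg38 on the reverse strand, inside the coding sequence. They are in capitals, with 20 bases on either side, at chr22:28796107-28796172. The same 26-base difference could be placed at 7 adjacent positions, and the one with a CAG after both cuts is given.
XBP1 intron removed by IRE1: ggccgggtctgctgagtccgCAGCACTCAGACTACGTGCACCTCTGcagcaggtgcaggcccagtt
The deposited value is 1 per gene and does not separate transcripts with and without these bases, so splicing of XBP1 was not measured here.

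Promoters are shown where a known element was found, and for CREB3L3, whose level differed most. The 250 bases before each start site and 50 after it were searched on both strands in 35116 RefSeq promoters (GRCh38.p14), 12 of which belong to the 10 genes. The ER stress element, CCAAT and CCACG with 9 unspecified bases between them, was found in 1 of the 12, that of XBP1, and in 0.0769% of all promoters. It lies 52 to 34 bases before the start site and is in capitals in the window chr22:28800583-28800641, reverse strand.
XBP1 promoter window: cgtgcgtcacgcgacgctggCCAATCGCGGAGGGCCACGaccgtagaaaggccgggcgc
The cyclic AMP response element TGACGTCA was found in CREB3L2 alone among the 12, and in 1.85% of all promoters. It lies 179 to 172 bases before the start site and is in capitals in the window chr7:138002238-138002285, reverse strand.
CREB3L2 promoter window: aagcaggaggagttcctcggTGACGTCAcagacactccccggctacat
Of the other 3 motifs, ER stress element II (ATTGG and CCACG with 1 unspecified base between them) was in 0.0541% of all promoters, the unfolded protein response element TGACGTGG in 0.729%, and the PPAR response element (AGGTCA, 1 unspecified base, AGGTCA) in 0.0228%. These were in 0 of the 12. The CREB3L3 window, chr19:4153381-4153630 on the forward strand with a GC content of 56%, therefore carries no capitals.
CREB3L3 upstream sequence: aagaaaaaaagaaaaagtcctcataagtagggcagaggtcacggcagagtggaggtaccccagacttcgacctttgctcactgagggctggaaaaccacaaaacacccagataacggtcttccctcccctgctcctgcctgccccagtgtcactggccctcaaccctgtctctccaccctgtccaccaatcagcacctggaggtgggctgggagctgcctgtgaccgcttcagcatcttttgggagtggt
None of the 5 motifs is a measured binding site, and a missing match says nothing about a factor.

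In the GENCODE v29 annotation of hg38 all 10 are protein-coding. CREB3 (ENSG00000107175) lies at chr9:35732335-35737004, CREB3L1 (ENSG00000157613) at chr11:46277661-46321422, CREB3L3 (ENSG00000060566) at chr19:4153601-4173054, CREB3L4 (ENSG00000143578) at chr1:153967534-153974363 and ATF6 (ENSG00000118217) at chr1:161766294-161964070, on the forward strand. On the reverse strand lie CREB3L2 (ENSG00000182158) at chr7:137874979-138002067, ATF6B (ENSG00000213676) at chr6:32115264-32128253, ERN1 (ENSG00000178607) at chr17:64039142-64130819, EIF2AK3 (ENSG00000172071) at chr2:88556741-88627576 and XBP1 (ENSG00000100219) at chr22:28794555-28800597. No 50-base stretch was shared between transcripts of any pair of CREB3 genes, and ATF6 and ATF6B shared 13. The share of 50-base stretches found in other genes' transcripts was 13.5% for EIF2AK3, 10.5% for ATF6B, 7.44% for CREB3L4 and 5.37% for CREB3. Neither CREB3L3 nor XBP1 had a 50-base stretch in common with the transcripts of any other gene. CREB3L4 shares 280 exon bases, 9.64% of its own, with SLC39A1 on the opposite strand, which stood at a mean of 185 TPM in ArA libraries and 173 TPM in control libraries, and 3.27% with JTB, also opposite, at 67.9 TPM in ArA and 66.6 TPM in control libraries. Whether counting used strand is not given in the sources used here, so the level of CREB3L4 is uncertain. EIF2AK3 shares 14.4% of its exon bases with the antisense gene AC104134.1, which was near 0 at 0.03 TPM in ArA and 0.027 TPM in control libraries. CREB3 shares 7.3% with GBA2 on the opposite strand, at 30.4 TPM in ArA and 34.0 TPM in control libraries, and 3.21% with TLN1, also on the opposite strand, at 88.2 TPM in ArA and 77.1 TPM in control libraries, so its level is uncertain too. ATF6B shares 7.96% with AL662884.2 on its own strand, which was listed at 0 in all libraries.

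Levels are in TPM, values corrected for transcript length that sum to the same total in every library. They allow genes to be set side by side but keep no read totals, so the depth behind each value is unknown. Transcripts of the mitochondrial genome made up 26.9 to 32.1% of the TPM in ArA libraries and 31.6 to 32.9% in control libraries, and all other genes share the rest. Over the 12999 genes tested the median log2 fold change was 0.06, and it was 0 to 0.01 under 3 other scalings (by quantiles, by the median of ratios, or after mitochondrial genes were taken out). The median gene stood lowest in ArA replicate 1, at -0.09, and control replicate 2, at -0.11 on the log2 scale. These are RNA shares of whole cultures, in which fewer cells of a type and less RNA per cell cannot be told apart. The mesenchymal markers of the line (VIM, CD44, AXL, CAV1, MSN and FN1) summed to 2710 to 2870 TPM in ArA and 2510 to 2730 TPM in control libraries. ESR1 did not exceed 0.03 TPM, and PGR and KLK3 were listed at 0. ERBB2, however, averaged 39.09 TPM in ArA and 35.65 TPM in control libraries. GATA3 averaged 3.71 TPM in ArA and 3.37 TPM in control libraries, and FOXA1 3.20 and 3.50 TPM. The keratins KRT8 and KRT18 were abundant, so that the luminal list summed to 691 to 788 TPM in ArA and 640 to 815 TPM in control libraries. The blood list summed to 217 to 267 TPM in ArA and 185 to 222 TPM in control libraries, nearly all of it CD68, with HBB at 0. The fibroblast and osteoblast list summed to 9.21 to 13.6 TPM in ArA and 10.4 to 11.6 TPM in control libraries.

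The 10 genes spanned a wide range of levels, with XBP1 at the top and CREB3L3 at the bottom. XBP1 averaged 188 TPM over the 6 libraries, above 97.8% of all genes listed above 0, followed by ATF6B at 127, CREB3 at 97.4 and ATF6 at 47.8 TPM. CREB3L2 averaged 25.5, EIF2AK3 22.8 and CREB3L1 14.8 TPM. The low end held CREB3L4 at 4.38, ERN1 at 3.80 and CREB3L3 at 1.11 TPM. Of the 9 neighbouring pairs in this order, 7 did not overlap in any library, and the pairs CREB3L2 with EIF2AK3 and CREB3L4 with ERN1 did. ERN1, the gene of IRE1, thus stood near the bottom of the order, while its mRNA substrate XBP1 stood at the top. Within the CREB3 family, CREB3 made up 68.0% of the summed level, which was 148 ± 6.97 TPM in ArA and 139 ± 7.80 TPM in control libraries (SD, n = 3 each).

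**Figure D1:**
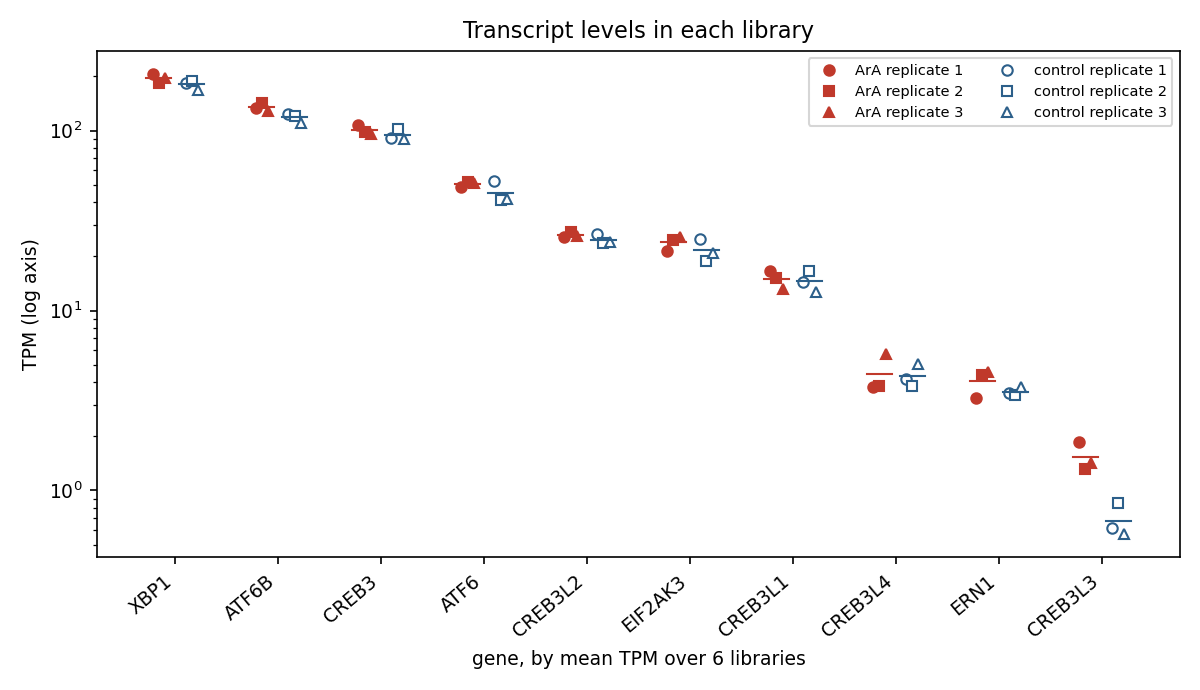
TPM on a log axis for the 10 genes, ordered by mean level, with filled red symbols for ArA libraries, open blue symbols for control libraries and a line at each group's mean (n = 3 each). Only CREB3L3 and ATF6B had all ArA values above all control values.

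ArA libraries were compared with control libraries to see how the transcripts of the sensors stood after the fatty acid. Since the choice of the 10 genes used this contrast, their differences are descriptions and the limma values beside them support nothing. CREB3L3 was the only one of the 10 with a difference of more than 1.5-fold. Its level was 2.25-fold higher as a ratio of mean TPM, and the other 9 ratios lay between 1.02 and 1.15. Fold changes from limma are on log2(TPM + 1), which shrinks those of low genes. By limma 0 of the 10 passed an adjusted p of 0.05, where 0.0231% of all tested genes did, and 1 had an unadjusted p under 0.05, where 2.78% did. All 3 ArA values lay above all 3 control values for CREB3L3 and ATF6B, where 6.84% of tested genes did so, and for 0 genes they lay below, where 1.21% did. All 10 log2 fold changes were above 0 with a median of 0.13, as were 68.9% of all tested genes; under each of the 3 other scalings CREB3L1 and CREB3L4 were below 0 and the median was 0.06 to 0.07.

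CREB3L3 had 1.86, 1.31 and 1.42 TPM in the ArA libraries, against 0.62, 0.85 and 0.57 TPM in the control libraries, or 1.53 ± 0.291 TPM in ArA and 0.680 ± 0.149 TPM in control libraries (SD, n = 3 each). Every ArA library was above every control library, with the highest control value at 0.85 and the lowest ArA value at 1.31 TPM. All control values were below the mean of 1 TPM needed for testing, so CREB3L3 entered the fit only through its ArA libraries. Its interval and rank are therefore descriptions. On the log2 scale the difference was 0.59 with an SE of 0.17 and a 95% interval of 0.18 to 1.00; limma's adjusted p over all genes was 0.999, and CREB3L3 ranked 81 of 12999 by unadjusted p. At a level near 1 TPM the size depended on the pseudocount, and the log2 fold change was 1.07 with 0.1 and 0.20 with 5 in place of 1. It ranged from 0.50 without ArA replicate 1 to 0.66 without control replicate 2.

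CREB3L3 is a gene of liver and gut, so markers of both were read beside it. Of 8 hepatocyte markers, ALB, TTR and FGB were listed at 0 in all 6 libraries. The list summed to 10.7 to 13.6 TPM in ArA and 10.4 to 12.2 TPM in control libraries, nearly all from SERPINA1, whose groups overlapped. Of 6 enterocyte markers, ALPI, FABP2, SI and CDX2 were listed at 0 throughout, and the list summed to 0.20 to 0.28 TPM in ArA and 0.24 to 0.52 TPM in control libraries.

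The groups of the other CREB3 genes overlapped. CREB3, known as Luman and bound by the host cell factor HCFC1, had 107.63, 98.30 and 95.36 TPM in ArA libraries, against 90.80, 102.51 and 89.73 TPM in control libraries, a log2 fold change of 0.09 (SE 0.09). Control replicate 2 of CREB3 lay above ArA replicates 2 and 3. CREB3L1, or OASIS, which drives collagen genes in osteoblasts, had 16.58, 15.21 and 13.14 TPM in ArA libraries, against 14.48, 16.48 and 12.73 TPM in control libraries. The values of CREB3L1 were interleaved, and the 95% interval of its log2 fold change ran from -0.29 to 0.36. CREB3L2, which drives the transport gene SEC23A in cartilage, had 25.46, 27.14 and 26.03 TPM in ArA libraries, against 26.45, 23.70 and 24.13 TPM in control libraries. Its groups overlapped through control replicate 1, which lay among the ArA values. CREB3L4, best known from prostate, had 3.74, 3.82 and 5.73 TPM in ArA libraries, against 4.14, 3.80 and 5.04 TPM in control libraries. For CREB3L4 replicate 3 was the highest in both groups, the coefficient of variation was 25.4% in ArA and 14.8% in control libraries, and the interval ran from -0.42 to 0.45.

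Of the ATF6 pair, ATF6B separated the groups and ATF6 did not. ATF6B, the weaker activator of the pair, had 134.05, 142.85 and 128.22 TPM in ArA libraries, against 123.73, 120.30 and 110.53 TPM in control libraries. The lowest ArA library stood just above the highest control library, and the means gave a log2 fold change of 0.19 with an SE of 0.08 and a 95% interval of -0.01 to 0.39. It was 0.11 to 0.13 under the 3 other scalings. ATF6 had 48.81, 51.59 and 50.95 TPM in ArA libraries, against 52.57, 40.89 and 41.89 TPM in control libraries. Control replicate 1 exceeded every ArA library, so the groups overlapped, with a log2 fold change of 0.17 (SE 0.12) that was 0.28 without that library.

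The 2 sensor kinases and XBP1 also overlapped between groups. ERN1 had 3.27, 4.38 and 4.55 TPM in ArA libraries, against 3.46, 3.38 and 3.76 TPM in control libraries. ArA replicate 1 was the lowest of all 6, and the log2 fold change of ERN1 was 0.15 (SE 0.15) with all libraries and 0.27 without it. EIF2AK3 had 21.32, 24.71 and 25.76 TPM in ArA libraries, against 24.95, 18.83 and 20.91 TPM in control libraries, a log2 fold change of 0.15 (SE 0.13) that ran from 0.06 without control replicate 2 to 0.25 without control replicate 1. That control library of EIF2AK3 exceeded ArA replicates 1 and 2. XBP1 had 206.78, 183.51 and 195.59 TPM in ArA libraries, against 183.19, 189.23 and 168.90 TPM in control libraries. Control replicate 2 lay above ArA replicate 2, and the means of XBP1 were 195 ± 11.6 TPM in ArA and 180.4 ± 10.4 TPM in control libraries (SD, n = 3 each), with a log2 fold change of 0.11 and a 95% interval from -0.08 to 0.31.

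**Figure D2:**
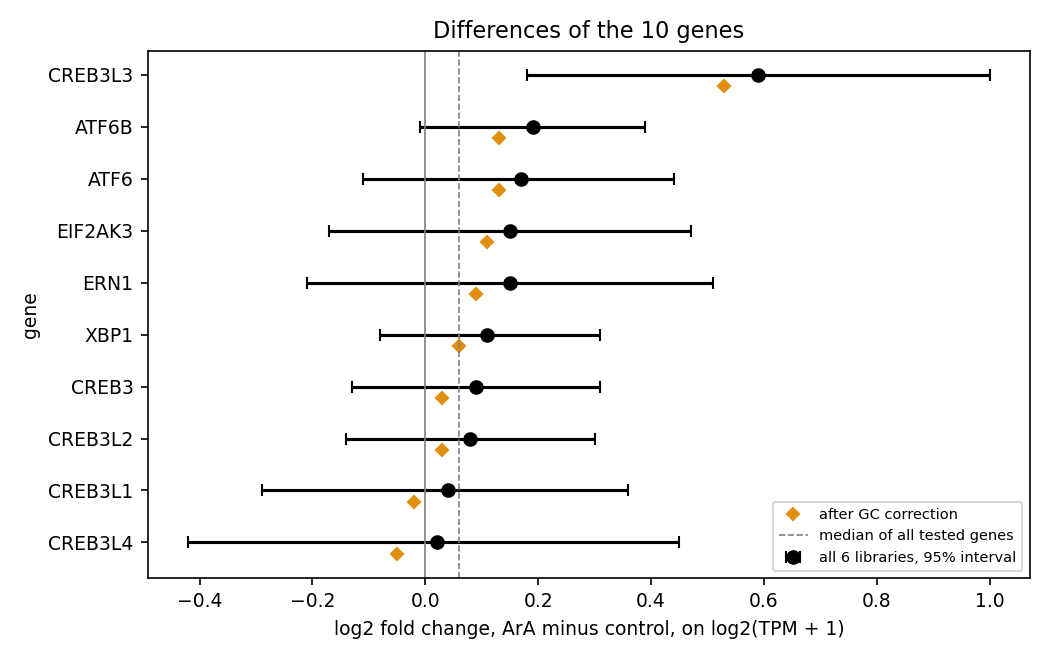
Log2 fold change of each gene on log2(TPM + 1), ArA minus control, with its 95% interval from limma (black, n = 3 each). Orange marks the value after GC correction, which removed each library's trend with GC content and its mean shift. The interval of CREB3L3, 0.18 to 1.00, alone excludes 0, but this gene was chosen with the contrast known and met the filter only through its ArA libraries. CREB3L1 and CREB3L4 turn negative after GC correction and under each of the 3 other scalings.

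Control replicate 2 was set against control replicates 1 and 3 by the GC content of the transcripts. Some of the 10 genes differed in the order of their GC content and others did not. The size of a trend over all genes is not given here. In control replicate 2, against the mean of control replicates 1 and 3, log2(TPM + 1) was higher by 0.26 for CREB3L1 (61.1% GC), by 0.21 for CREB3L3 (59.5%) and by 0.18 for CREB3 (56.6%). It was lower for ATF6 (41.3% GC), at -0.19, and for EIF2AK3 (44.4%), at -0.27. Others did not follow this order: CREB3L4 was at -0.22 with 53.4% GC, ATF6B at 0.04 with 57.7%, and XBP1 at 0.10 with 50.1% against ERN1 at -0.07 with 50.8%. After the trend with GC content over all genes had been subtracted from each library, the difference was 0.04 for EIF2AK3. ATF6 changed sign, from -0.19 to 0.30. ATF6, XBP1, at 0.14, and CREB3L4, at -0.26, lay farther from 0 than before. The log2 fold change after this correction was 0.53 (SE 0.16) for CREB3L3, 0.13 (SE 0.08) for ATF6B and 0.11 (SE 0.08) for EIF2AK3, and -0.02 and -0.05 for CREB3L1 and CREB3L4; each had a limma adjusted p of 1.

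**Figure D3:**
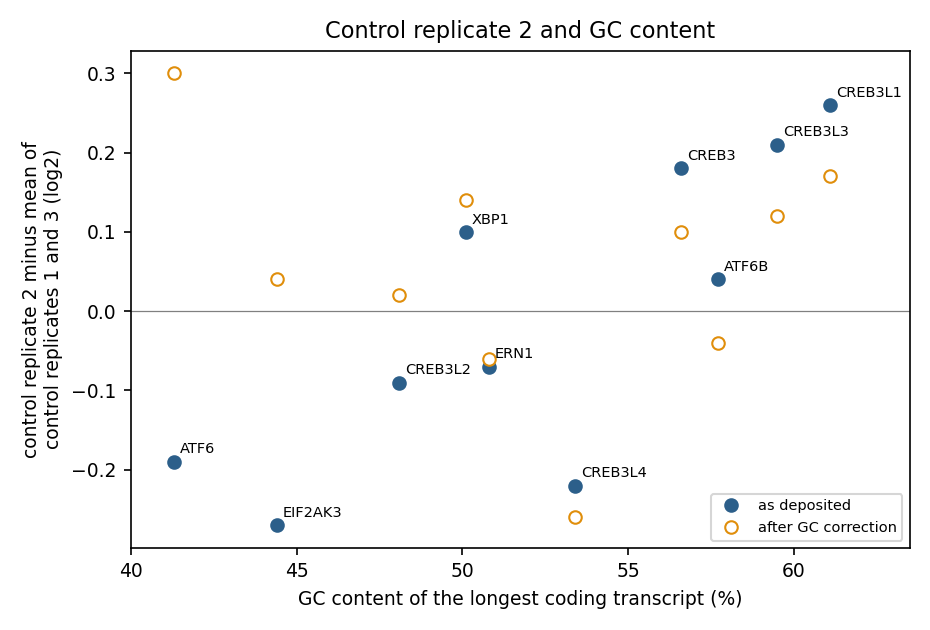
Log2 difference of control replicate 2 from the mean of control replicates 1 and 3 against the GC content of each gene's longest coding transcript, as deposited (blue) and after GC correction (orange, open), 1 point per gene. CREB3L1 and CREB3L3 at high GC content lie above 0, and ATF6 and EIF2AK3 at low GC content lie below 0 as deposited. CREB3L4, at -0.22 with 53.4% GC, and ATF6B, at 0.04 with 57.7%, do not follow this order.

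The genes that act with or downstream of the 10 were read from 10 lists of 105 genes, 92 of which were tested. XBP1, itself a member, is counted among the 92 as an ATF6 target. None passed (0 of 92 in limma over all genes), and 5 had an unadjusted p under 0.05, or 5.43% where all genes gave 2.78%: CEBPB, ASNS, EIF2B2, COL6A1 and CPT1A. Of these, CEBPB, ASNS and CPT1A were already known to differ when the lists were drawn up, so the choice of genes raised this share. Log2 fold changes were above 0 for 82 of the 92, or 89.1% where all tested genes gave 68.9%, with a median of 0.11 against 0.06 for all genes. Under the 3 other scalings 63 to 70 of the 92 were above 0, where 49.3 to 51.8% of all tested genes were, with medians of 0.03 to 0.05 against 0 to 0.01. These shares of all genes are the background for the counts of each list. The groups did not overlap for 15 of the 92, all higher in ArA libraries, or 16.3% where all genes gave 6.84%. CEBPB, ASNS and CPT1A are among the 15, so this share was raised in the same way and is no support.

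The proteases and partners of the cleaved factors had 11 of 12 log2 fold changes above 0 (9 or 10 under the other scalings) and a median of 0.09. MBTPS1, the site-1 protease that makes the first cut in ATF6 and the CREB3 proteins, had 81.18, 73.61 and 70.96 TPM in ArA libraries, against 69.22, 64.90 and 58.91 TPM in control libraries. These values did not overlap, and the log2 fold change was 0.22 (SE 0.10, limma adjusted p = 0.999). HSPA5, the chaperone BiP that holds the sensors inactive, had 720 ± 33.5 TPM in ArA and 642 ± 75.3 TPM in control libraries (SD, n = 3 each), and NUCB1, an inhibitor of ATF6 cleavage, had 224 ± 25.7 TPM in ArA and 207 ± 25.4 TPM in control libraries. Among 11 tested factors tethered to membranes or related by kinase or bZIP domain, 8 were above 0 (7 under the other scalings). NFE2L1, another ER-bound factor, had 203 ± 12.4 TPM in ArA and 177 ± 18.0 TPM in control libraries. The eIF2α kinase gene EIF2AK4 had 26.5 ± 4.34 TPM in ArA and 22.8 ± 3.22 TPM in control libraries, within its spread.

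ATF6 targets, a list that holds XBP1 and HSPA5 too, had all 12 log2 fold changes above 0 under each of the 4 scalings, where 68.9% of all tested genes were in the main one and 49.3 to 51.8% in the others. In the main one they were 0.08 to 0.21, with a median of 0.15. PDIA4, a disulfide isomerase, had 348.08, 331.09 and 339.57 TPM in ArA libraries, against 306.87, 318.58 and 259.97 TPM in control libraries. The groups did not overlap for PDIA4, nor for the secreted ER protein MANF, while CALR, the most abundant of the list, had 1806 ± 135 TPM in ArA and 1634 ± 200.4 TPM in control libraries. XBP1 targets had 13 of 14 above 0 in the main scaling and 8 to 11 in the others, with a median of 0.10. SEC61A1, the pore of the ER translocon, had 367 ± 31.2 TPM in ArA and 325 ± 36.3 TPM in control libraries, and SSR3, a translocon subunit, had 324 ± 10.9 TPM in ArA and 315 ± 16.5 TPM in control libraries. None of these differences passed.

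Among partners of IRE1, 8 of 10 were above 0 (5 to 7 under the other scalings). TMBIM6, which binds IRE1 and dampens it, had 1039 ± 41.8 TPM in ArA and 948 ± 71.3 TPM in control libraries, and PDIA6 had 485 ± 32.2 TPM in ArA and 440.0 ± 52.0 TPM in control libraries. RTCB, the ligase that joins the ends of XBP1 mRNA after the cut, had 106.00, 105.89 and 107.74 TPM in ArA libraries, against 101.21, 101.40 and 103.72 TPM in control libraries. The groups of RTCB did not overlap, although its log2 fold change of 0.06 equalled the median of all genes. ZBTB8OS, the ligase cofactor archease, had 20.1 ± 4.87 TPM in ArA and 22.9 ± 4.76 TPM in control libraries. Transcripts known to be cut by IRE1 for decay were above 0 in 6 of 6 tested (5 under the other scalings). COL6A1, a collagen among them, had 67.13, 58.05 and 56.46 TPM in ArA libraries, against 46.40, 54.59 and 43.61 TPM in control libraries, without overlap. SPARC, another secreted matrix gene, had 83.4 ± 3.93 TPM in ArA and 83.2 ± 11.9 TPM in control libraries.

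Of the PERK branch, all 10 targets of PERK and ATF4 were above 0 in the main scaling and 7 in each other one, with a median of 0.15. CEBPB, a bZIP factor, had 41.78, 42.22 and 44.04 TPM in ArA libraries, against 30.69, 34.30 and 35.27 TPM in control libraries. Each ArA value exceeded each control value, with a log2 fold change of 0.35 (SE 0.09, limma adjusted p = 0.999). CHAC1, ASNS and DDIT4 did not overlap either, with log2 fold changes of 0.27, 0.20 and 0.19. ATF4 itself had 223 ± 13.1 TPM in ArA and 215 ± 6.99 TPM in control libraries, and the phosphatase subunit PPP1R15A, which reverses PERK's mark, had 91.0 ± 2.35 TPM in ArA and 81.3 ± 8.36 TPM in control libraries. Among substrates and brakes of PERK, 8 of 10 were above 0 in the main scaling, where 68.9% of all genes were, and 3 to 5 in the others, where 49.3 to 51.8% were. EIF2B2, a subunit of the eIF2B exchange factor, had 48.7 ± 3.23 TPM in ArA and 41.7 ± 1.39 TPM in control libraries. EIF2S1, which encodes eIF2α, had 183 ± 39.3 TPM in ArA and 174 ± 26.4 TPM in control libraries.

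The targets of CREB3L3 known from mouse liver were mostly at or near 0. Of 13, 3 reached a mean of 1 TPM and were tested, CPT1A and PPARA among them. APOC2, PCK1, G6PC1, CRP and APCS were listed at 0 in all 6 libraries. APOA4, APOA5, FGF21, CIDEC and HAMP had no value above 0.60 TPM, and their groups overlapped. CPT1A, which loads fatty acids for import into mitochondria, had 58.61, 54.16 and 52.04 TPM in ArA libraries, against 40.85, 45.02 and 40.58 TPM in control libraries, with a log2 fold change of 0.37 (SE 0.09, limma adjusted p = 0.999). CPT1A, like CEBPB, ASNS and PTGES, was known to differ in these libraries when the lists were drawn up. The nuclear receptor gene PPARA had 4.92, 4.35 and 4.18 TPM in ArA libraries, against 4.77, 3.35 and 3.59 TPM in control libraries, and its groups overlapped. Of 8 tested targets of CREB3, CREB3L1 and CREB3L2, 7 were above 0 (5 or 6 under the other scalings). ARF4, a Golgi transport gene that CREB3 induces, averaged 366 TPM in ArA and 357 TPM in control libraries with a log2 fold change of 0.03 (SE 0.08), and SEC24D, of the COPII coat, had 22.6 ± 0.728 TPM in ArA and 20.4 ± 0.847 TPM in control libraries. HERPUD1, of ER-associated degradation, had 149.5 ± 3.48 TPM in ArA and 139 ± 9.45 TPM in control libraries.

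**Figure D4:**
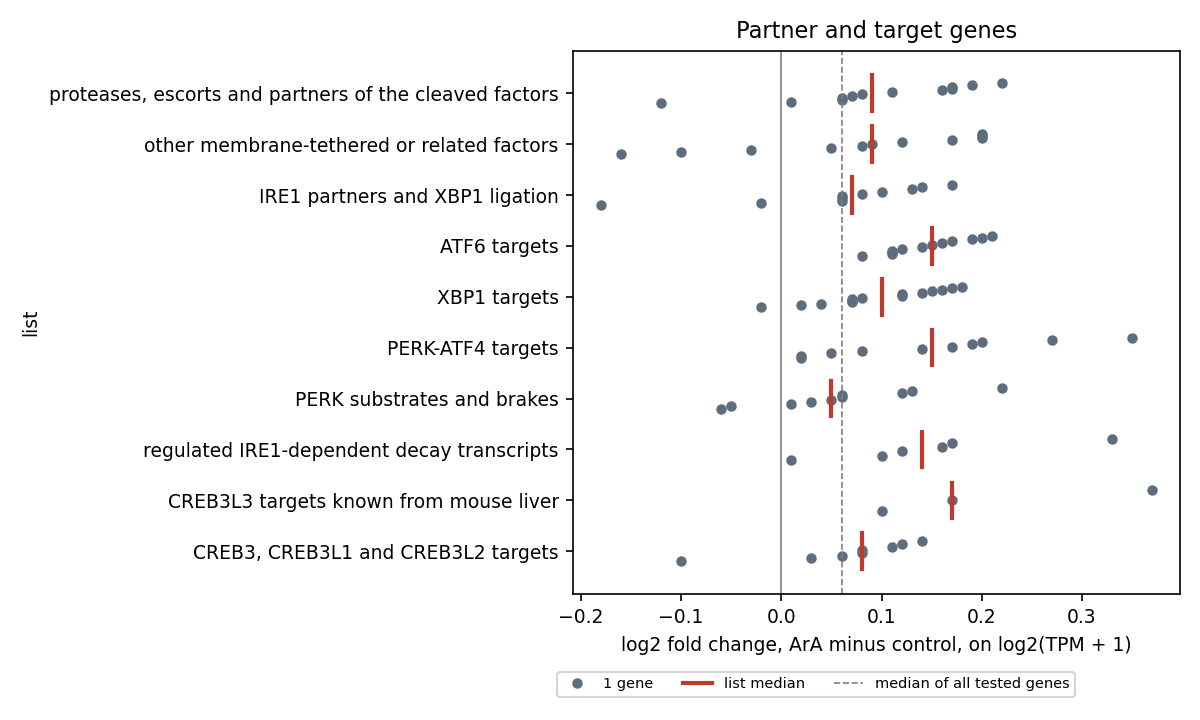
Log2 fold change of each tested gene (grey points, ArA minus control on log2(TPM + 1)) in the 10 lists, with each list's median in red and the median of all tested genes, 0.06, as a dashed line. The medians run from 0.05 to 0.17 with CPT1A, CEBPB and COL6A1 farthest to the right. The highest, of the CREB3L3 targets, rests on 3 tested genes of 13, with CPT1A, known to differ beforehand, among them. It was 0.01 with no filter on low values. The lowest, of PERK substrates and brakes, has 3 to 5 of 10 genes above 0 under the other scalings, where 49.3 to 51.8% of all tested genes are.

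The patterns of CREB3L3 and CREB3L4, the genes with the widest spread over the 6 libraries, were set beside those of all tested genes. Likeness was the root mean square difference of log2(TPM + 1) over the 6 libraries after each gene's mean was subtracted, so genes with the same group difference come close by construction. For CREB3L3 the closest were CSF1, a macrophage growth factor, at 0.063, PTGES, the inducible prostaglandin E synthase, at 0.066 and FBXO2, an F-box gene for glycoproteins, at 0.067. CSF1 had 302.00, 279.05 and 277.47 TPM in ArA libraries, against 192.16, 210.19 and 174.34 TPM in control libraries. The likeness holds on log2(TPM + 1), where the difference of CREB3L3, near 1 TPM, depends on the pseudocount. As ratios of mean TPM, ArA over control, CREB3L3 stood at 2.25, against 1.49 for CSF1, 1.63 for PTGES and 1.64 for FBXO2. All 4 genes were highest in ArA replicate 1 and, among controls, highest in control replicate 2. For CREB3L4 the closest were CD163L1 at 0.051, TMEM147-AS1 at 0.052 and STMP1 at 0.057, all highest in replicate 3 of both groups.

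**Figure D5:**
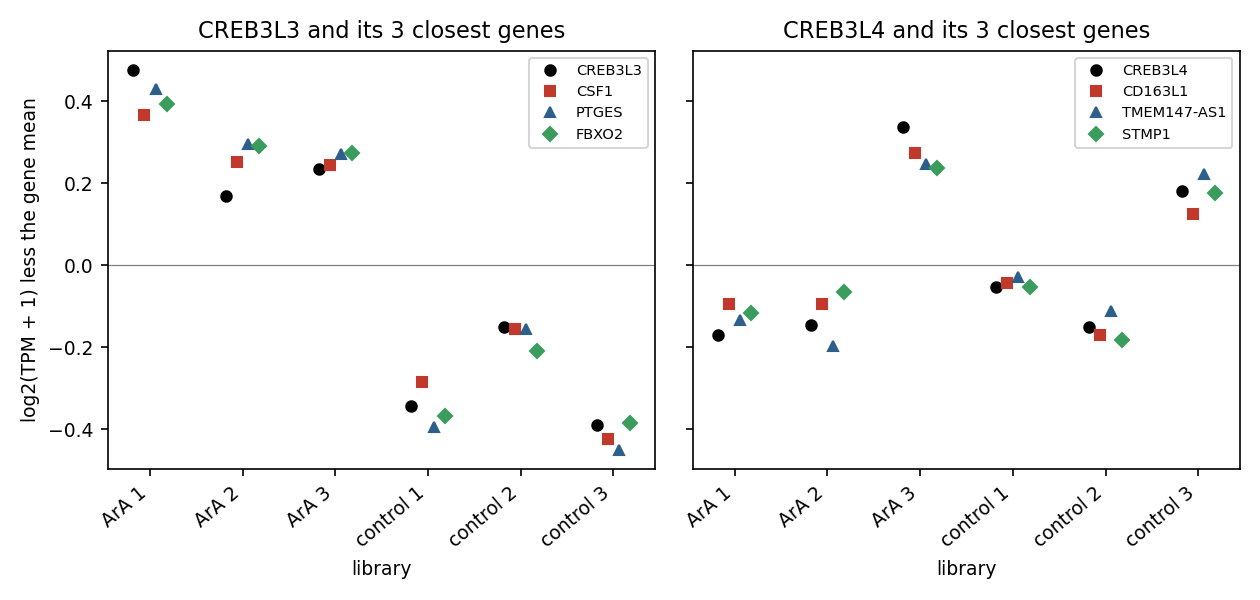
Log2(TPM + 1) less each gene's mean in the 6 libraries for CREB3L3 (left) and CREB3L4 (right) with the 3 genes closest to each. CREB3L3 and its 3 closest genes lie above 0 in all ArA libraries and below 0 in all control libraries, and CREB3L4 and its 3 closest genes lie above 0 in replicate 3 of each group. The pseudocount of 1 shrinks the differences of CREB3L3 more than those of its 3 closest genes.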

How the data were processed

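RNA of 3 ArA and 3 control samples of MDA-MB-231 was sequenced after TruSeq library preparation, per the labels' protocols. The authors deposited 1 table of TPM, scaled to the same total in each library. Per the submitters' processing notes the tools were HISAT2, StringTie and RSEM and the build hg38; their versions and roles, the annotation and the use of strand are not stated there. Of its lines, 63241 were genes, and 50 without a gene name were left out. The 12999 genes averaging 1 TPM or more were fitted on log2(TPM + 1) with limma 3.58.1 in R 4.3.3 (eBayes with trend, group as the only term), 2-sided, with Benjamini-Hochberg adjustment over all of them. TPM gives no depth, so no counting interval can be given. All members and the listed genes past the threshold were to be named, or else the 2 most abundant of each list and the largest difference; other genes were chosen after their values were seen. The members and lists were chosen with earlier results of these data known. The GC correction, added after seeing the data, subtracted a natural spline of 5 degrees of freedom on the GC content of the longest coding transcript (GENCODE v29, 97.2% of tested genes). The spline was fitted with an intercept, so each library's mean shift was subtracted too. Sequences are from RefSeq and GENCODE tables. The values of 1 listed gene are not reported here. The fit was tested on simulated data.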

Additional observations from a re-analysis of the deposited data

How the results depend on the processing

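None of the 10 members and none of the 92 tested list genes passed in the main analysis or in any of 17 alternatives, 15 planned and 2 with GC correction. XBP1 is in both sets. Over all genes 3 passed, against 5 after GC correction, and 0 to 7 with 1 library left out: 0 without ArA replicate 2 or control replicate 1, and 7 without ArA replicate 1 or control replicate 2. The replicate number did not pair the libraries, with correlations of same-numbered deviations of -0.16, -0.28 and 0.11; with it as a replicate block 0 genes passed, and 2 with GC correction as well. The cause was not tested. The order of levels was the same under every scaling and without each library, with 6 neighbouring pairs apart under median-of-ratios scaling and 7 otherwise. Each scaling keeps the order of these genes within a library. The order of pairs that did not overlap therefore could not change, and its stability is no support. Among single genes, CREB3L3 moved beyond its spread with the pseudocount, and CREB3L2 (0.01) and ATF6B (0.11) under quantile normalization. CREB3L1 ranged from -0.05 to 0.13 and CREB3L4 from -0.15 to 0.11, and the other 8 members were above 0 in every alternative that tested them. The median of the CREB3L3 targets was 0.01 with no filter on low values and 0.29 without control replicate 1, against 0.17. Depth is unknown, which limits CREB3L3, CREB3L4 and ERN1 most.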
